A study of Mus musculus with 20 samples.

Results

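The blood coagulation and fibrinolysis genes described here are 9 named genes of the deposited expression table: F3, F10, F5 and F8, Tfpi and Thbd, Plat and Plau, and Serpine2. They were picked by name as clotting factors and plasminogen activators with their inhibitors, with earlier results of these data known. All 9 are among the 24528 genes of the table, and all 9 passed the filter that left 17863 genes for testing. Total RNA freed of ribosomal RNA was sequenced from dissected neocortex and hippocampus of C57BL/6J mice aged 18 months. TDP-43KQ/KQ mice were homozygous for a glutamine in place of a lysine of endogenous TDP-43, an acetylation mimic that weakens RNA binding, and TDP-43wt mice carried the unaltered protein. The substitution was placed in the endogenous Tardbp gene with CRISPR-Cas9, so all cells of these mice carried it. There were 5 neocortex libraries of TDP-43wt mice (3 from females) and 6 of TDP-43KQ/KQ mice (3 from females). Hippocampus libraries numbered 4 for TDP-43wt (3 from females) and 5 for TDP-43KQ/KQ (3 from females).

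Coagulation is a cascade of blood proteases. Tissue factor, the product of F3, starts it on the surface of cells outside the blood, factor X (F10) makes thrombin with factor V (F5) as its cofactor, and factor VIII (F8) is the cofactor in the activation of factor X. Tfpi encodes the inhibitor of the tissue factor pathway and Thbd encodes thrombomodulin, which turns thrombin toward protein C activation. Fibrinolysis dissolves the clot through plasmin, which tissue plasminogen activator (Plat) and urokinase (Plau) release from plasminogen. In brain, neurons and glia make tissue plasminogen activator, where it acts in synaptic plasticity, astrocytes are a main source of tissue factor, and Serpine2 encodes protease nexin 1, a glial inhibitor of thrombin and of both activators. Clotting factors of the blood are mostly made in liver, and the libraries measure RNA of the dissected tissue and not protein in blood.

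The values are log2-like and every gene is set relative to its own mean over the neocortex TDP-43KQ/KQ libraries, so a value of 0 is that mean, and levels of different genes cannot be compared. Sex and litter had been removed from the values over all libraries together. As a result, neocortex TDP-43wt male 1, the only library of its litter, lay on its group mean for every gene, and the neocortex and hippocampus libraries of TDP-43KQ/KQ female 2, which shared a litter with no other library, deviated from their group means by equal amounts in opposite directions. SDs given here are therefore somewhat too small, and the main test fitted sex and litter again (limma over both regions with 11 residual degrees of freedom, Benjamini-Hochberg adjustment over all 17863 genes, called at an adjusted p under 0.05). The 6 female libraries of the neocortex match those of the hippocampus in genotype, number and litter and may be from the same 6 mice, which the labels do not say. In TDP-43wt and TDP-43KQ/KQ mice alike, 7 of 7 hippocampal neuron markers were called higher and 6 of 7 neocortical ones lower in the hippocampus, and Fezf2 went the other way (0.48 in TDP-43wt).

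F3 and F5 are the members whose upstream sequences are shown, because F3 was among the members that rose in the hippocampus of TDP-43KQ/KQ mice and F5 was the member that followed the choroid plexus gene Ttr. Both sequences are the 250 bases before the RefSeq gene start in GRCm38.p6, the assembly of mm10, on the plus strand, at chr3:121723287-121723536 for F3 and at chr1:164151585-164151834 for F5. Capitals mark exact matches, on either strand, to the GC box GGGCGG and to the AP-1 motif TGACTCA. The matches are letters only, and no binding was measured.
F3: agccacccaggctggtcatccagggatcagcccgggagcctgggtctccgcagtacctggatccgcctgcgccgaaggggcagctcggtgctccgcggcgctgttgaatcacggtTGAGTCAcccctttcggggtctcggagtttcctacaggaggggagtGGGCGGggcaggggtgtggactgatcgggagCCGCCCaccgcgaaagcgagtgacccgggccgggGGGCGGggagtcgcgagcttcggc
F5: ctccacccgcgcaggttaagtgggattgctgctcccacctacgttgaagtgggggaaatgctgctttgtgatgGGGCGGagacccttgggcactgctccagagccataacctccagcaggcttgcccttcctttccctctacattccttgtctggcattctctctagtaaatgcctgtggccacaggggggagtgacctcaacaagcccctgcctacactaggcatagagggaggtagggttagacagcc
The F3 sequence held 3 GC boxes and 1 AP-1 motif, and the F5 sequence held 1 GC box. Of 32851 mouse promoter windows of the same length, 32.7% held GGGCGG and 4.46% held TGACTCA on either strand. TAATCC, the core letters bound by OTX2, a factor of choroid plexus epithelium, were in neither sequence and in 6.25% of all windows. TATAAA and CACGTG, searched in the same way, were in neither sequence and in 12.4% and 6.02% of windows. The table of promoters held 6 of the 9 members, without Plat, Plau and Thbd.

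TDP-43 prefers UG-rich RNA, so runs of TG were read from the longest protein-coding GENCODE vM21 transcript of each member. Introns, where much of the binding of TDP-43 lies, were not searched. F10 had the longest run, of 5 TG units, in the 3′ UTR in exon 9 (chr8:13056429-13056458, plus strand), and Tfpi followed with 4 units in the 3′ UTR in exon 8 (chr2:84441316-84441345, minus strand). The longest run of Plat was 3 units in coding exon 2 (chr8:22767109-22767138, plus strand). Each is printed as the transcript reads, with the run in capitals.
F10: attttcagtaTGTGTGTGTGcgcgcgtgca
Tfpi: gcatcagtcctTGTGTGTGacagtgcatga
Plat: agagagagctgcTGTGTGtactgctgcttt
A run at least as long was found in 6.91% of genes with transcripts of like length for F10, in 30.1% for Tfpi and in 70.9% for Plat. The transcripts of F3 and F5 held no TGTGTG at all.

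Plat rose in the hippocampus of TDP-43KQ/KQ mice, and its difference in the neocortex had the same sign but missed the threshold. Its gene lies on chromosome 8 from 22757722 to 22782848. In hippocampus the TDP-43wt libraries had relative values of -0.05, -0.35, -0.14 and -0.22 and the TDP-43KQ/KQ libraries had 0.28, 0.18, 0.28, 0.26 and 0.39. In neocortex the TDP-43wt libraries had -0.29, -0.40, -0.30, -0.32 and -0.27, and the 6 TDP-43KQ/KQ libraries ran from -0.12 to 0.10 with a median of 0.004. In each region the lowest TDP-43KQ/KQ library lay above the highest TDP-43wt library. The difference between genotypes was 0.47 ± 0.076 (log2, SE; n = 5 and 4; adjusted p = 0.0165, limma) in hippocampus and 0.32 ± 0.071 (n = 6 and 5; adjusted p = 0.0702, limma) in neocortex. The difference between these 2 values was 0.15 with a 95% interval from -0.06 to 0.36, and the regions were not shown to differ in it. Within TDP-43KQ/KQ mice Plat was also higher in hippocampus than in neocortex (0.28 ± 0.064, adjusted p = 0.00328, limma), and in TDP-43wt mice that difference was 0.13 ± 0.072 (adjusted p = 0.211, limma). The order of the group means was thus neocortex TDP-43wt at -0.32 ± 0.049 (SD, n = 5), hippocampus TDP-43wt at -0.19 ± 0.126 (n = 4), neocortex TDP-43KQ/KQ at 0 and hippocampus TDP-43KQ/KQ at 0.28 ± 0.077 (n = 5), in which neighbours overlapped except for the last 2 groups.

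F3 rose in the hippocampus of TDP-43KQ/KQ mice, where each of the 5 libraries lay above all libraries of the other 3 groups. It spans 121723537 to 121735052 on chromosome 3. The hippocampus TDP-43wt libraries had -0.06, -0.02, -0.03 and -0.19 (the last from the male) and the hippocampus TDP-43KQ/KQ libraries had 0.10, 0.24, 0.16, 0.22 and 0.29, with no overlap. In neocortex the TDP-43wt libraries ran from -0.10 to 0.02 and the TDP-43KQ/KQ libraries from -0.03 to 0.04, and the groups overlapped. The genotype difference was 0.27 ± 0.055 in hippocampus (log2, SE; n = 5 and 4; adjusted p = 0.0445, limma) and 0.06 ± 0.051 in neocortex (n = 6 and 5; adjusted p = 0.553, limma). With the female libraries of the same number taken as a block, the hippocampal call was lost (adjusted p = 0.0543, limma). The hippocampal value exceeded the neocortical one by 0.21 (95% interval 0.06 to 0.36; adjusted p = 0.783, limma), so a difference between the regions was not called. Hippocampus exceeded neocortex by 0.20 ± 0.046 in TDP-43KQ/KQ mice (adjusted p = 0.0031, limma) and by -0.01 ± 0.052 in TDP-43wt mice (adjusted p = 0.934, limma).

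These 2 genes were the members called between genotypes. In hippocampus 2 of 9 members were called higher and none lower, where 0.386% of all 17863 genes were called in either direction, and 7 of 9 members had a positive difference, with a median of 0.25 against -0.0010 over all genes tested. The members were chosen with earlier results of these data known, so such shares describe them and do not test an excess. In neocortex 0 of 9 members were called by limma, where 0.224% of all genes were called, and the median was 0.01. An unadjusted p under 0.05 was found for 2 members in neocortex (Plat and Serpine2), where 14.4% of all genes had one, and for 5 in hippocampus (F3, Tfpi, Thbd, Plat and Plau), where 14.8% had one. Non-overlap of the genotypes was found for 3 members in hippocampus (F3, Tfpi and Plat), where it was found for 9.63% of all genes, and for Plat alone in neocortex, where it was found for 8.63%. The exact permutation test of each member within a region, two-sided and without adjustment, gave p = 0.00794 for F3 and for Plat in hippocampus (n = 5 and 4) and p = 0.00216 for Plat in neocortex (n = 6 and 5), the smallest p these group sizes allow; this test takes libraries as exchangeable, which the earlier removal of sex and litter does not fully leave them. It gave other p under 0.05 in neocortex for F3 (exact p = 0.0346), Plau (exact p = 0.039) and Serpine2 (exact p = 0.0108), and in hippocampus for Tfpi and Plau (exact p = 0.0317 for each) and Thbd (exact p = 0.0238). Both hippocampal calls were lost without either of 2 libraries. Without TDP-43KQ/KQ female 1 of the hippocampus, the adjusted p was 0.126 for Plat and 0.0876 for F3, and without its TDP-43wt male 1 it was 0.107 and 0.221 (limma). These omissions left 8 and 19 of all 17863 genes called in the hippocampal comparison, where the main fit called 69. Of the 20 omissions of 1 library, that of neocortex TDP-43wt male 1 left the fit as it was, and those of the TDP-43KQ/KQ female 2 libraries gave the same fit. Over the 18 distinct fits F3 was called in 2 and Plat in 16, while the differences ran from 0.20 to 0.33 and from 0.41 to 0.51. The number of all genes called in the hippocampal comparison ran from 8 to 137 over these fits.

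**Figure D1:**
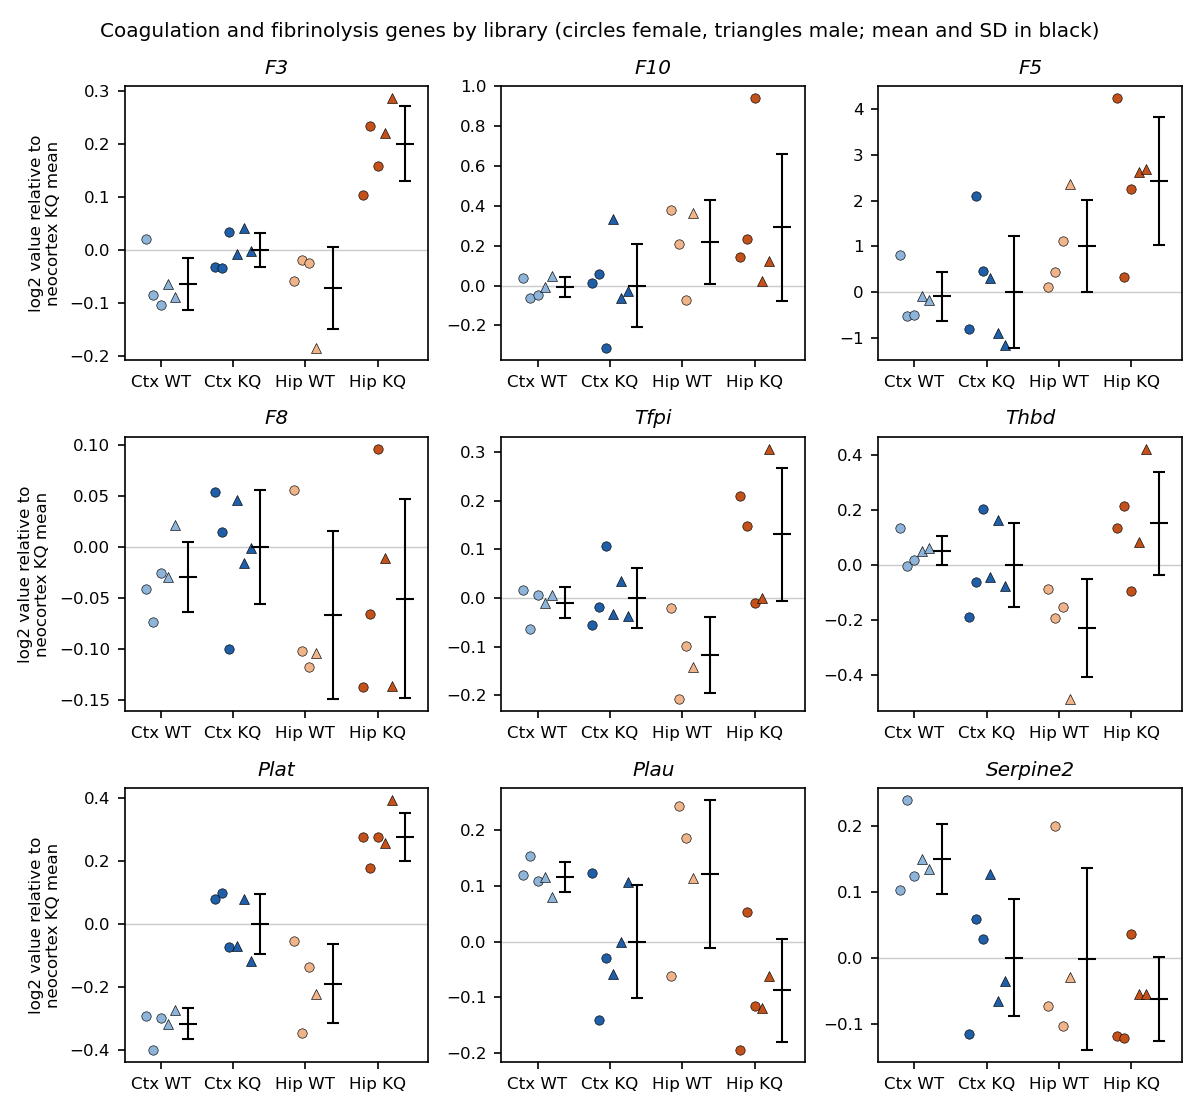
Relative log2 value of each of the 9 genes in each library (y axis, 0 is the mean of the neocortex TDP-43KQ/KQ libraries; scales differ between panels) in neocortex (Ctx) and hippocampus (Hip) of TDP-43wt (WT) and TDP-43KQ/KQ (KQ) mice. Circles are females, triangles are males, and black bars give the mean and SD; the hippocampus TDP-43KQ/KQ libraries of Plat (0.18 to 0.39) and F3 (0.10 to 0.29) lie above all libraries of the other 3 groups.

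The anticoagulant members Tfpi and Thbd had hippocampal differences of like size that did not pass the adjusted threshold. For Tfpi (chromosome 2, 84432855 to 84476775) the hippocampus TDP-43wt libraries had -0.02, -0.21, -0.10 and -0.14 and the TDP-43KQ/KQ libraries had 0.21, 0.15, -0.01, 0.001 and 0.31. The groups did not overlap, although female 3 of TDP-43KQ/KQ lay just above female 1 of TDP-43wt. The difference was 0.25 ± 0.072 (adjusted p = 0.156, limma) in hippocampus and 0.01 ± 0.068 (adjusted p = 0.965, limma) in neocortex. For Thbd (chromosome 2, 148404471 to 148408188) the hippocampus TDP-43wt libraries had -0.09, -0.19, -0.15 and -0.49 and the TDP-43KQ/KQ libraries 0.14, 0.21, -0.10, 0.08 and 0.42, with female 3 of TDP-43KQ/KQ below female 1 of TDP-43wt. Its difference was 0.38 ± 0.120 (adjusted p = 0.185, limma) in hippocampus, falling to 0.22 without the TDP-43wt male, and -0.05 ± 0.113 (adjusted p = 0.853, limma) in neocortex. The difference between the regional effects was 0.24 for Tfpi (95% interval 0.04 to 0.44) and 0.43 for Thbd (0.11 to 0.76), with adjusted p of 0.815 and 0.795 by limma.

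Across the 20 libraries, the genes most alike to Tfpi by Pearson's r were Bmp5 (0.91), Colec12 (0.90) and Mpzl2 (0.89), and those most alike to Thbd were Bmp5 (0.90), Fam180a (0.90) and Omd (0.89), given as descriptions over libraries that share groups. Markers of meningeal and perivascular fibroblasts had positive differences in the same hippocampal comparison in 9 of 9 cases, with a median of 0.38, of which Lum alone was called (0.51 ± 0.098, adjusted p = 0.0364, limma). Their mean ran from -0.04 to 0.38 in the hippocampus TDP-43wt libraries and from 0.26 to 0.76 in the TDP-43KQ/KQ libraries. Markers of endothelial cells, which make both proteins, had 6 of 10 positive differences with a median of 0.05, none called, and their mean ran from -0.27 to 0.27 and from -0.05 to 0.13. Markers of mural cells had 8 of 9 positive differences with a median of 0.18, none called, and their mean ran from -0.23 to 0.31 and from 0.09 to 0.34. Whether any of these cell types took part in the values of Tfpi and Thbd was not tested. In bulk tissue, more cells of a type and more RNA per cell cannot be told apart.

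Plau and Serpine2 had negative differences between TDP-43KQ/KQ and TDP-43wt mice in both regions, and neither was called. Plau (chromosome 14, 20836662 to 20843388) ran from -0.06 to 0.24 in hippocampus TDP-43wt and from -0.19 to 0.05 in hippocampus TDP-43KQ/KQ libraries, and from 0.08 to 0.15 and from -0.14 to 0.12 in neocortex, and the genotypes overlapped in both. Its differences were -0.21 ± 0.079 (adjusted p = 0.249, limma) and -0.12 ± 0.073 (adjusted p = 0.459, limma). The urokinase gene and the tissue activator gene thus had differences of opposite sign in both regions. Their correlation over the 20 libraries was -0.77, with the group differences left in it. Serpine2 (chromosome 1, 79794317 to 79858665) ran from 0.10 to 0.24 in neocortex TDP-43wt and from -0.11 to 0.13 in neocortex TDP-43KQ/KQ libraries. Its difference was -0.15 ± 0.070 in neocortex (adjusted p = 0.343, limma) and -0.06 ± 0.074 in hippocampus (adjusted p = 0.746, limma), where it was 0.0068 without TDP-43wt female 2.

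F10 and F8 showed no genotype difference that the spread allowed to be seen. F10 (chromosome 8, 13037308 to 13056676) differed by 0.01 ± 0.173 in neocortex and 0.07 ± 0.185 in hippocampus, with 95% intervals from -0.36 to 0.38 and from -0.32 to 0.47. Its values spread most in hippocampus TDP-43KQ/KQ, from 0.02 to 0.94, and the highest belonged to female 3. Among the genes most alike to it, Slc27a5 (r = 0.989) and Nat8f2 (0.989) were highest in that same library (1.31 for Slc27a5 and 1.63 for Nat8f2). Their lowest values (-0.48 and -0.56) were in the neocortex TDP-43KQ/KQ group, where F10 was lowest in female 3 (-0.31). The deviations of the neocortex and hippocampus libraries of TDP-43KQ/KQ female 3 from their group means correlated at -0.69 over the genes tested. Their opposite values are thus not separate observations. Without the hippocampal library of female 3 the F10 difference in hippocampus was -0.15 (adjusted p = 0.368, limma), of the opposite sign. Slc27a5 is best known as a liver gene of bile acid conjugation. F8 (chromosome X, 75170344 to 75382738) was the most even member in these relative values, with all 20 libraries between -0.14 and 0.10 and differences of 0.03 ± 0.058 in neocortex and 0.02 ± 0.062 in hippocampus (adjusted p = 0.839 and 0.932, limma). The values hold no expression level, so whether few reads narrowed its range cannot be told.

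Of the 9 members, F5 lay farthest from its own neocortex TDP-43KQ/KQ mean and had the largest spread. It spans 164151835 to 164220277 on chromosome 1. In hippocampus the TDP-43wt libraries had 0.11, 0.43, 1.11 and 2.37 and the TDP-43KQ/KQ libraries had 4.24, 0.33, 2.27, 2.63 and 2.69. In neocortex the TDP-43wt libraries had 0.81, -0.53, -0.50, -0.10 and -0.17, and the TDP-43KQ/KQ libraries ran from -1.16 to 2.10 with a median of -0.26. The genotypes overlapped in both regions, and the differences of 1.43 ± 0.849 in hippocampus (adjusted p = 0.453, limma) and 0.10 ± 0.795 in neocortex (adjusted p = 0.967, limma) were within the spread. The hippocampal difference was 0.44 without TDP-43KQ/KQ female 1 and 2.30 without the TDP-43wt male, and the neocortical one ran from -0.32 to 0.44 without 1 library; none of these was called. In TDP-43KQ/KQ mice the hippocampus exceeded the neocortex by 2.43 ± 0.715 (adjusted p = 0.0152, limma), with overlap of single libraries, and in TDP-43wt mice by 1.10 ± 0.813 (adjusted p = 0.341, limma). Without hippocampus TDP-43KQ/KQ female 1, which had the highest F5, the TDP-43KQ/KQ difference was 1.76 with an adjusted p of 0.0706 (limma).

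Between regions, 3 of 9 members were called in TDP-43KQ/KQ mice (F3, F5 and Plat, all higher in hippocampus), where 35.4% of all genes were called, and 0 of 9 by limma in TDP-43wt mice, where 28.2% were called and Thbd alone had an unadjusted p under 0.05 (-0.28 ± 0.115, adjusted p = 0.0825). Neither share of members exceeded the share of all genes. No member, and 0.0% of all genes, was called for a difference of the genotype effect between the regions by limma. An unadjusted p under 0.05 there was found by limma for 3 of 9 members (F3, Tfpi and Thbd) and for 5.83% of all genes. The members were chosen with earlier results known, so this share describes them and does not test an excess.

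**Figure D2:**
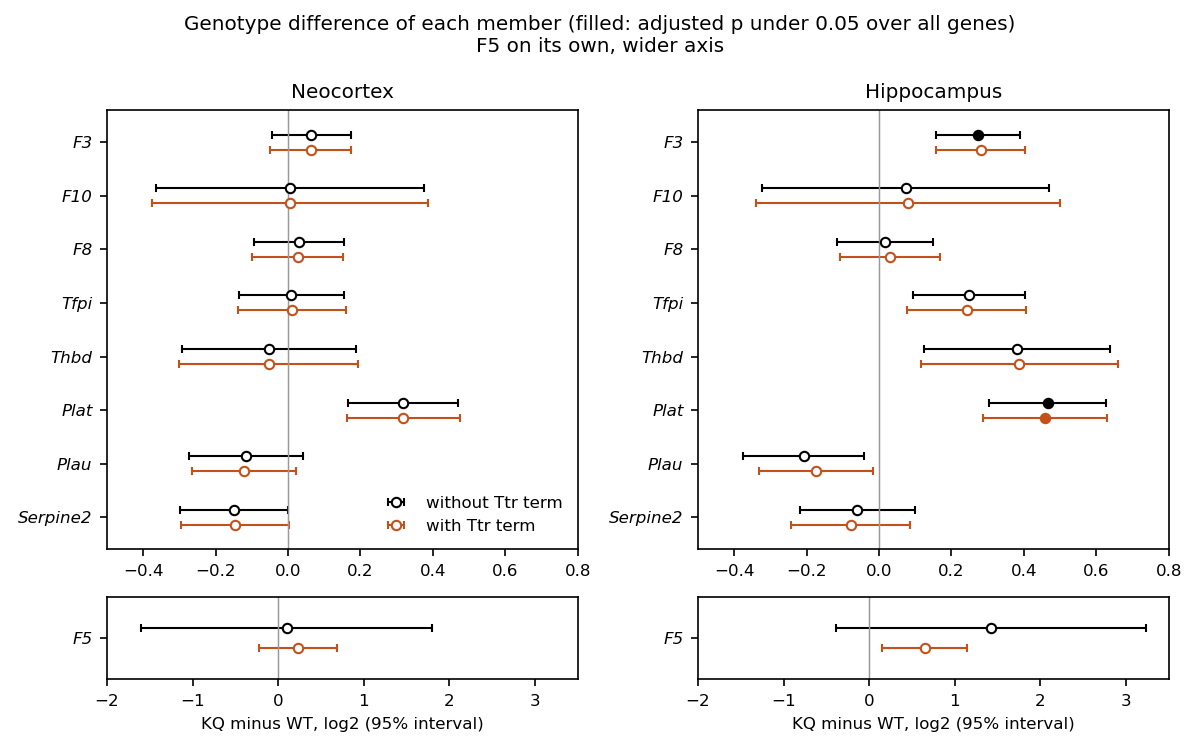
Difference between TDP-43KQ/KQ and TDP-43wt (x axis, log2, with 95% interval) for each gene in neocortex and hippocampus, fitted without (black) and with (orange) Ttr as a covariate; filled points were called over all genes, and F5 has a wider axis of its own. With the Ttr term the F5 value in hippocampus moved from 1.43 to 0.65, and those of Plat (0.47 and 0.46) and F3 (0.27 and 0.28) hardly moved.

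Transthyretin, the product of Ttr, is made in the brain by the epithelium of the choroid plexus, which lies beside the hippocampus. Ttr ran from -1.43 to 2.85 in neocortex TDP-43wt, from -2.54 to 3.99 in neocortex TDP-43KQ/KQ, from -0.22 to 3.94 in hippocampus TDP-43wt and from -0.36 to 6.61 in hippocampus TDP-43KQ/KQ libraries. The highest value again belonged to hippocampus TDP-43KQ/KQ female 1. F5 rose with Ttr by 0.48 ± 0.034 per log2 unit (adjusted p = 1.03e-05, limma with group, sex, litter and Ttr), the only slope called among the 9 members, where 1.06% of the genes tested were called. It was called in each of the 18 distinct fits without 1 library, with slopes from 0.43 to 0.50. The 13 other choroid plexus markers were called too, with slopes from 0.19 to 0.42; the difference of F5 from these was not tested.

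Within neocortex the correlation of F5 with Ttr was r = 0.966 and Spearman's rho = 0.973 over 11 libraries (permutation p = 2e-05 for both, the smallest that 100000 permutations can give). Within hippocampus it was r = 0.965 (exact permutation p = 2.2e-05) and rho = 0.967 (exact permutation p = 0.000165) over 9 libraries. The permutation tests with Ttr take libraries as exchangeable, which the earlier removal of sex and litter does not fully leave them. The mirrored libraries of TDP-43KQ/KQ female 2 enter both regions, so the regions are not fully separate evidence. After subtraction of the genotype means r was 0.974 and 0.975. Without the 2 libraries farthest from the median of Ttr, which included TDP-43KQ/KQ female 2 in both regions, r was 0.983 over 9 libraries and 0.985 over 7. With a slope for each region, F5 rose by 0.37 ± 0.041 per unit in neocortex and by 0.62 ± 0.050 in hippocampus (adjusted p = 0.00344 and 1.3e-05, limma); the difference of these slopes was not tested. The genes most alike to F5 over all 20 libraries were Cldn2 (r = 0.994), Kcne2 (0.991) and Slc4a5 (0.990), a claudin, a potassium channel subunit and a bicarbonate transporter of choroid plexus epithelium that are in the marker list.

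The F5 values changed with the choroid plexus term. With Ttr as a covariate the genotype difference of F5 in hippocampus was 0.65 ± 0.232 (adjusted p = 0.254, limma) in place of 1.43, and the regional difference in TDP-43KQ/KQ mice was 0.70 ± 0.226 (adjusted p = 0.0331, limma) in place of 2.43. With the mean of the 13 other markers in place of Ttr, that regional difference was -0.002 (adjusted p = 0.994, limma). Beside these values stand those of the markers themselves. In the fit without a choroid plexus term, 14 of 14 were positive in the hippocampal genotype comparison, with a median of 1.09, and none was called. In the regional comparison of TDP-43KQ/KQ mice in that fit, 14 of 14 were positive, 13 were called, and the median was 1.76. With Ttr as a covariate, the 13 other markers ran from 0.38 (Kcne2) to 0.91 (Kcnj13) in the genotype comparison. They ran from 0.18 (Aqp1) to 1.33 (Kl) in the regional one. The difference of F5 from the markers in these comparisons was not tested.

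The other 8 members had slopes on Ttr between -0.021 (Plau, 95% interval -0.045 to 0.002) and 0.011 (Serpine2, -0.013 to 0.035), and none was called. Of the 18 relations computed within regions (9 members in 2 regions), those of F5 alone had an unadjusted p under 0.05. For Plau in neocortex r was -0.57 and rho was -0.44 over 11 libraries (permutation p = 0.0779 and 0.181, unadjusted), r was -0.23 without the 2 libraries farthest from the median of Ttr, and r was -0.80 after subtraction of the genotype means. In hippocampus r was -0.45 and rho was -0.67 over 9 libraries (exact permutation p = 0.215 and 0.0589, unadjusted), and the corresponding values of r were -0.82 and -0.28. With Ttr as a covariate Plat in hippocampus stayed called (0.46 ± 0.080, adjusted p = 0.034, limma), and F3 had 0.28 ± 0.058 with an adjusted p of 0.0632 (limma). With the other markers as covariate Plat had 0.44 (adjusted p = 0.0795) and F3 0.30 (adjusted p = 0.0853, limma).

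**Figure D3:**
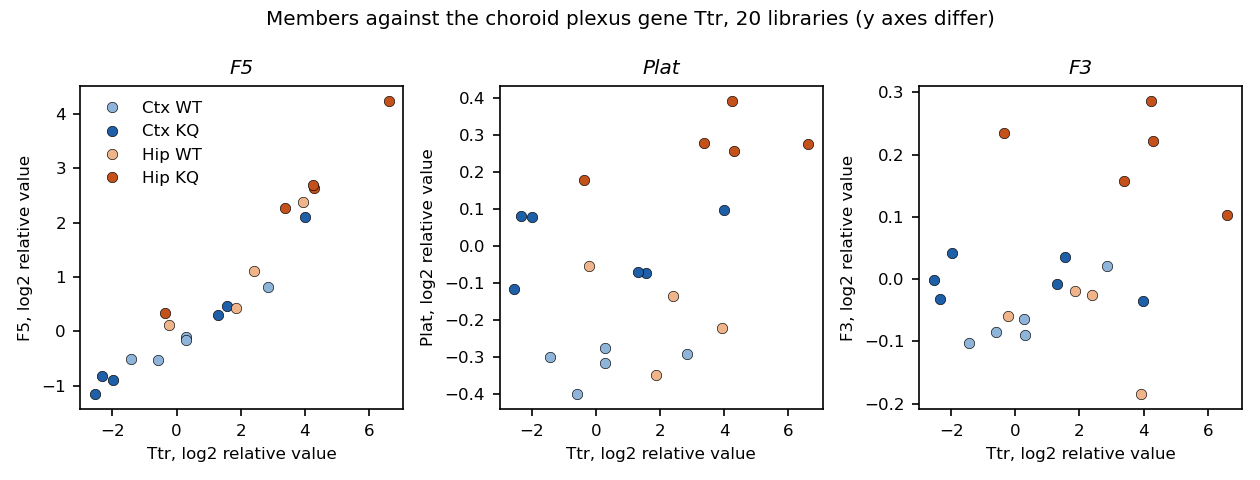
Relative log2 value of F5, Plat and F3 (y axes, scales differ) against that of Ttr (x axis) in the 20 libraries, coloured by group. F5 rises with Ttr from -1.16 to 4.24 across all 4 groups, whereas the slopes of Plat and F3 were not called and their hippocampus TDP-43KQ/KQ libraries lie above all others.

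**Figure D4:**
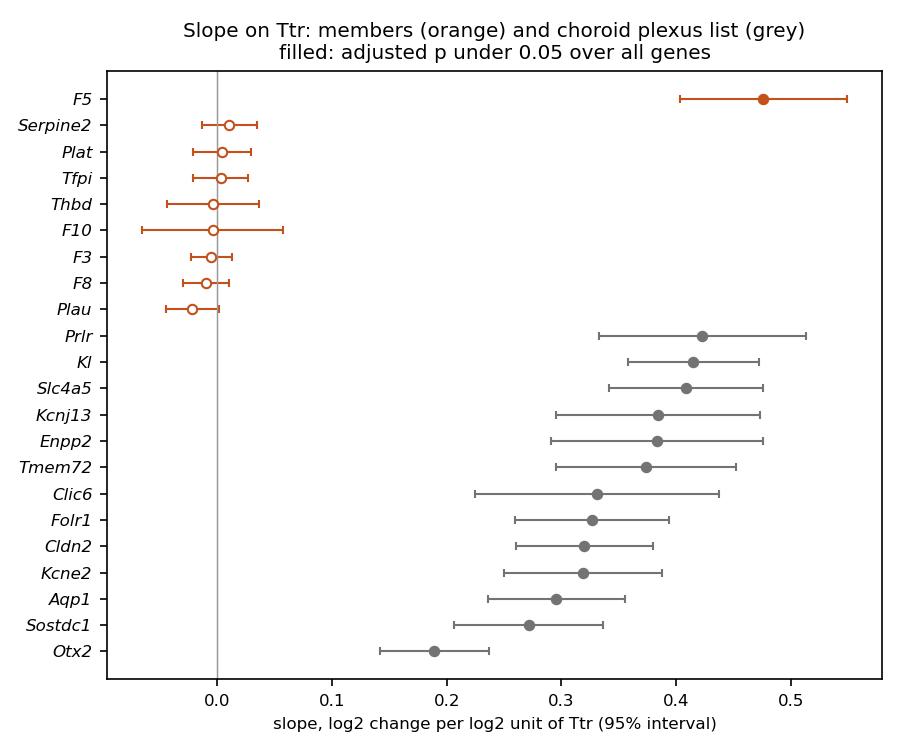
Slope on Ttr with its 95% interval (x axis, log2 change per log2 unit of Ttr) of the 9 members in orange and of the 13 other choroid plexus markers in grey; filled points were called. F5 (0.48) stands with the markers (0.19 to 0.42), and the intervals of the other 8 members include 0.

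Of 49 other genes of coagulation and fibrinolysis in the table, 48 were tested. None was called between genotypes in either region (4 had an unadjusted p under 0.05 in neocortex, or 8.33%, and 6 in hippocampus, or 12.5%, by limma, below the 14.4% and 14.8% of all genes), and 37 of 48 had a positive difference in hippocampus, with a median of 0.07. The hippocampal differences were 0.07 ± 0.10 for Serpini1, the neuronal inhibitor neuroserpin, 0.01 ± 0.073 for Plaur, the urokinase receptor, and -0.05 ± 0.389 for Plg, plasminogen. They were 0.13 ± 0.088 for F2r, the thrombin receptor PAR1, and -0.10 ± 0.061 for Procr, the protein C receptor.

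Between regions 5 of the 48 were called lower and none higher in the hippocampus of TDP-43wt mice, and 8 were called higher and 4 lower in that of TDP-43KQ/KQ mice. These are 10.4% and 25.0% of the list, below the 28.2% and 35.4% of all genes called. Among the called genes, the largest changes were those of A2m, a broad protease inhibitor (1.35 ± 0.306 in TDP-43KQ/KQ), Gp1bb, a platelet adhesion receptor subunit (-0.75 ± 0.044), F2rl2, a thrombin receptor (-0.73 ± 0.057), and Serpinf2, the inhibitor of plasmin (0.54 ± 0.183). Serpini1 was lower in the hippocampus in both genotypes (-0.46 ± 0.095 in TDP-43wt and -0.33 ± 0.084 in TDP-43KQ/KQ).

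The genes most alike to Plat over the 20 libraries, with group differences left in, were Txnip (r = 0.948), Trp53inp1 (0.945) and Irf9 (0.944). Those most alike to F3 were Ifi207 (0.903), Pik3ip1 (0.864) and Txnip (0.864). Txnip, which encodes a binder of thioredoxin, was thus among the 3 most alike for both. Serpine2 was most alike to Vps26a (0.953), Cfdp1 (0.952) and Hsp90aa1 (0.951), Plau to Ccng2 (0.840), Cnr2 (0.823) and Aggf1 (0.821), and F8 to 1700020N01Rik (0.820), Ccdc38 (0.792) and Lpo (0.769). Astrocyte markers, of cells that make tissue factor, had 2 of 10 positive differences between genotypes in hippocampus with a median of -0.12, and none was called. Positive differences there were 14 of 14 for choroid plexus, 9 of 9 for meningeal and perivascular fibroblasts and 8 of 9 for mural cells. They were 6 of 10 for endothelium, 1 of 7 for neurons, 0 of 9 for microglia and 0 of 7 for oligodendrocytes. Whether any of these cell types took part in the values of F3 was not tested.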

How the data were processed

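Total RNA-seq of neocortex and hippocampus from mice aged 18 months was analysed. The authors used cutadapt for trimming, STAR 2.5.2b for alignment to mm10 with RefSeq annotation, and Salmon for quantification. The authors then applied the variance-stabilizing transformation of DESeq2 1.34.0 (R 4.1.0), from which the effects of sex and litter were removed by limma. The deposited values are log2-like and centred on the neocortex TDP-43KQ/KQ mean of each gene, so they hold neither read depth nor expression level, and errors were judged by how libraries of a group vary. The largest sex or litter coefficient left in them was 4.76e-08, as after a removal over both regions. The table held 0 columns of other samples.

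Groups were taken from the sample labels. Of 24528 genes, 4383 were the same in every library; these and genes tied in all 3 libraries of 1 region, sex and litter were dropped, leaving 17863. With limma 3.58.1 (R 4.3.3, statmod 1.5.0) a linear model was fitted with 4 group means, sex and litter over all 20 libraries (11 residual degrees of freedom; eBayes without a trend), with contrasts for genotype in each region, region in each genotype and their difference, and again with Ttr as a covariate. The step was also run on simulated data, with planted differences equal in both regions and larger than those of Plat and F3. How it treats smaller differences was not simulated. Permutation tests used Python 3.11.15 with scipy 1.17.1. All p are two-sided; intervals cover 95%. No p was adjusted over the members alone, although the plan for the permutation tests had foreseen it. Promoters and gene positions are from RefSeq (GRCm38.p6) and transcripts from GENCODE vM21.

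The members, the gene lists and the tests were chosen with earlier results of these data known. All 9 members are named, as are pathway genes fixed by name (Serpini1, Plaur, Plg, F2r, Procr), the 4 with the largest changes among the pathway genes called between regions, and for each member the 3 genes with the highest Pearson's r to it over the 20 libraries. Of the genes these rules name, 2 are not reported here. Libraries of the same number in the 2 genotypes were often of different litters, so the numbers do not pair the genotypes by litter. The deviations of such libraries from their group means correlated from -0.60 to 0.12 over 9 such pairs, with 0 of 9 correlating best with its namesake. The earlier removal of sex and litter shapes these deviations, so their correlations cannot decide on a pairing. Alternatives were other covariates, each region alone, replicate blocks, other filters, median centring, robust estimation, choroid plexus covariates and the omission of each library; the females alone were added after the data had been seen. Nothing in the labels says more than that libraries are from separate samples, and p-values measure the spread between them.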

Additional observations from a re-analysis of the deposited data

Results flagged for a closer look

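In a check of 40 groups of 4 to 6 libraries (the 9 members and Ttr in 4 groups), 2 values lay farther from the rest of their group than Dixon's limit allows, and chance gives about 1 in 20. F10 in hippocampus TDP-43KQ/KQ female 3 was at 0.94, and the other 4 libraries of that group ran from 0.02 to 0.24. Without this library the F10 difference between genotypes in hippocampus was -0.15 (adjusted p = 0.368, limma) and the regional difference in TDP-43wt mice (0.23) had an adjusted p of 0.0242 (limma). F8 in hippocampus TDP-43wt female 1 was at 0.056, and the other 3 libraries of that group ran from -0.12 to -0.10. Without it the F8 difference between genotypes in hippocampus was 0.06 (adjusted p = 0.687, limma). Neither omission led to a call between genotypes for F10 or F8.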

How the results depend on the processing

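The 0 members called between genotypes in neocortex became 1 with group as the only term, 1 with group and sex, 1 with a replicate block of sex and number, and ran from 0 to 1 without 1 library (1, Plat, without hippocampus TDP-43wt female 2). In the same order, the number of all genes called there went from 40 in the main fit to 2381, 1812, 1137 and 123. The 2 called in hippocampus became 0 with each region alone, 5 with group as the only term, 5 with group and sex, 1 with a replicate block of female mice (adjusted p = 0.0543 for F3 and 0.0187 for Plat, limma), 4 with a replicate block of sex and number, 1 with libraries centred on their median, 1 with Ttr, 0 with the choroid plexus list and 0 with a Ttr slope for each region as covariates, 0 in females alone, and ran from 0 to 2 without 1 library. Of all genes, 69 were called there in the main fit, 0 with each region alone, 2077 with group only and 1584 with group and sex. The number was 51 with the block of female mice, 941 with that of sex and number, and 69 with median centring. It was 44 with Ttr, 17 with the choroid plexus list, 6 with a Ttr slope for each region and 7 in females alone. The 0 called between regions in TDP-43wt mice became 2, 2 and 3 with group only, with group and sex, and with the block of sex and number, and ran from 0 to 2 without 1 library (2, F10 and Thbd, without hippocampus TDP-43KQ/KQ female 3). In the same order, all genes called there went from 5041 in the main fit to 7562, 7167, 7173 and 5174. The 3 called between regions in TDP-43KQ/KQ mice became 4 with group only and with group and sex, 1 with the choroid plexus list, 1 with a Ttr slope for each region and 0 in females alone, and ran from 2 to 4 without 1 library. All genes called there numbered 6316 in the main fit, 8454 with group only and 8149 with group and sex. They numbered 3646 with the choroid plexus list, 2340 with a Ttr slope for each region and 3779 in females alone. The regional difference of F5 in TDP-43KQ/KQ mice changed sign, to -0.0021, with the choroid plexus list as a covariate. The causes were not tested, and each region alone and the females alone also hold fewer libraries. In females alone Plat differed by 0.48 in hippocampus and F3 by 0.15. Whether female libraries of the same number in the 2 regions are from the same mice is not stated (correlation 0.274 in the fit); their deviations from the group means correlated from -1.0 to 0.72 over 6 pairs, 1 of them best with its namesake, and the pair at -1.0 is the mirrored one. The earlier removal of sex and litter shapes these correlations, so they cannot decide whether the mice are the same. The number gives no pairing of genotypes by litter. The same side of the threshold and the same direction were kept by 1572 of 1638 single-gene values under an alternative. Most of these values were not called in the main fit either, and the omissions that repeat a fit are counted. The share therefore says little about the calls themselves. Over the 18 distinct omissions the hippocampal genotype call held in 2 for F3 and in 16 for Plat. The count for the slope on Ttr (1) held under its alternatives, and no member was called for a difference between the regional genotype effects under those run. Depth is not in the values; no limit could be set from it.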
